A study of Gossypium barbadense and Gossypium hirsutum with 4 samples.

Results

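The genes described here are tubulins measured in developing cotton fiber, the single-celled hair of the seed coat, in *Gossypium barbadense* (*Gb*) and *Gossypium hirsutum* (*Gh*). They were represented by 7 of the 24029 probe sets tested on a cotton Affymetrix array, where a probe set is a group of short oligonucleotides designed for one transcript. Of these, 5 probe sets were chosen by a tubulin name in the study's list of genes differing between the species on the same arrays. Only the first 1159 rows of that list were held here, and all had at least 1 log2 unit less signal in *Gb*. The 5 are called the listed probe sets. The other 2, called cluster partners, share a transcript cluster number with a listed probe set and entered whatever their values. The rows held here gave the partners no name of their own, so they are counted as tubulins by cluster number alone. Within the 5 clusters, 6 probe sets belonged to clusters with a beta-tubulin name and 1 was named gamma-tubulin. A second annotation, given below, contradicts the tubulin name of 2 listed probe sets, from which both partners take theirs.

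Each array held RNA of fibers at 11 days post anthesis from glasshouse plants, with no treatment and no gene modified. The *Gb* arrays, V.1 and V.2, came from the variety VH8-4602, and the *Gh* arrays, G.29 and G.30, from Guazuncho 2. Every array was hybridized with RNA pooled from several plants, and each species was represented by 1 variety and 2 arrays, so p-values measure the spread between such arrays and species cannot be told apart from variety. With 2 arrays against 2, an exact permutation test cannot go below a two-sided p of 0.333. The values are log2 signals normalized together by the authors with gcrma, and a difference of 1 means a 2-fold change. All differences are given as *Gb* minus *Gh*, so a negative value is a lower signal in *Gb*.

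Alpha-tubulin and beta-tubulin join into heterodimers that polymerize into microtubules, the hollow filaments of the cytoskeleton. Gamma-tubulin sits in the complexes from which new microtubules are nucleated. In an elongating cotton fiber, microtubules lie under the plasma membrane and guide the cellulose synthase complexes, so that their orientation is reflected in the layering of cellulose in the wall. Several beta-tubulin genes are expressed in fiber, and their sequences are similar, so that one probe set can bind transcripts of more than one gene.

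All 7 tubulin probe sets gave a higher signal on both *Gh* arrays than on both *Gb* arrays. Over all probe sets, 19.7% were separated in this direction. For the 5 listed probe sets the direction was set by their choice, as was a difference of at least 1, which 5.2% of all probe sets reached with the lower signal in *Gb*, and nothing is read from either count. Their differences ran from −1.57 to −1.07 with a median of −1.34, whereas the median over all probe sets was 0.04. The 2 cluster partners differed by −0.21 and −0.25. In these bulk samples, fewer cells and less RNA per cell cannot be told apart. Ghi.8448.1, Ghi.4629.2 and Ghi.6271.2 were designed on *Gh* sequences and Gra.1953.2 on a *G. raimondii* sequence. Weaker binding of *Gb* transcripts to such probes cannot be told apart from less RNA, and was not tested.

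**Figure D1:**
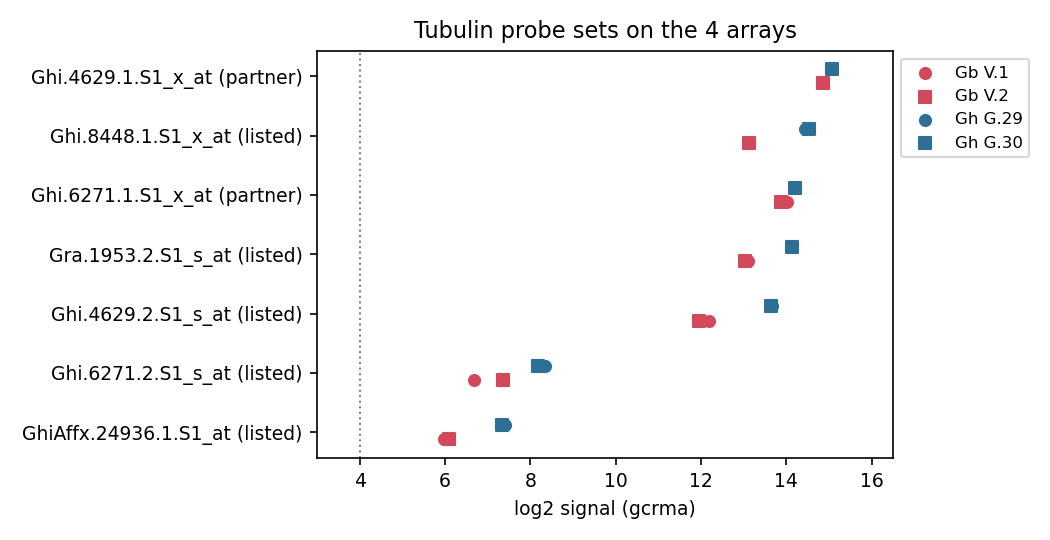
Log2 signal (horizontal axis) of the 7 tubulin probe sets on each of the 4 arrays, with red points for *Gb*, blue points for *Gh* and a dotted line at 4. Within each probe set the blue points lie to the right of the red ones, by the smallest distance in the partners Ghi.4629.1 and Ghi.6271.1. Points that coincide hide one another.

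Ghi.8448.1.S1_x_at is described on the array as the complete coding sequence of BTub1 of the *Gh* line Xu-142, a beta subunit of the heterodimer. Its log2 signal was 13.13 on V.1 and 13.12 on V.2 against 14.44 on G.29 and 14.53 on G.30. The group means were 13.13 ± 0.01 in *Gb* and 14.49 ± 0.06 in *Gh* (SD, n = 2), a difference of −1.36, or 2.57-fold more signal in *Gh*. The arrays of a species lay within 0.09 of each other and the nearest arrays of the species were 1.31 apart. In rank, where 1 is the brightest probe set, Ghi.8448.1.S1_x_at stood at 635 and 641 on the *Gb* arrays and at 140 and 135 on the *Gh* arrays.

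Another beta-tubulin chain, Gra.1953.2.S1_s_at, was designed on a *G. raimondii* sequence, a species of the D genome, and is described as strongly similar to a rice tubulin beta chain. Its signal was 13.10 and 13.03 on V.1 and V.2 and 14.13 and 14.14 on G.29 and G.30. The means of Gra.1953.2.S1_s_at were 13.06 ± 0.05 in *Gb* and 14.14 ± 0.01 in *Gh* (SD, n = 2), a difference of −1.07 and a ratio of 2.11-fold. Of the listed probe sets it was the one closest to a difference of −1, where the rows held here ended. Tubulin names on the other side of that limit could not be seen here. Whether other tubulins lie between it and the partner Ghi.6271.1.S1_x_at, at −0.25, is therefore not known.

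The beta-tubulin 3 cluster, Ghi.4629, held 2 probe sets that behaved differently. The listed one, Ghi.4629.2.S1_s_at, titled BTub3, gave 12.20 on V.1 and 11.96 on V.2 against 13.66 on G.29 and 13.64 on G.30. Its means were 12.08 ± 0.17 in *Gb* and 13.65 ± 0.01 in *Gh* (SD, n = 2), a difference of −1.57 and a ratio of 2.97-fold. Its partner in the cluster, Ghi.4629.1.S1_x_at, was the brightest probe set of the tubulin clusters and nearly level between the species. Ghi.4629.1.S1_x_at gave 14.85 on V.1 and 14.86 on V.2 against 15.07 on G.29 and 15.06 on G.30, and stood between ranks 49 and 76 on all 4 arrays. Its difference of −0.21 (SE 0.03), or 1.16-fold more signal in *Gh*, passed the test over all probe sets (limma with Benjamini-Hochberg adjustment, adjusted p = 0.0244).

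That call was not stable. It was lost when the array medians were subtracted (limma, adjusted p = 0.102). Over the scalings tried, the limma adjusted p of Ghi.4629.1.S1_x_at ranged from 0.00861 to 0.102, while its difference stayed negative, between −0.49 and −0.13. Leaving out any 1 of the 4 arrays leaves 1 species with a single array, so whether the call holds is not read there. The difference itself was then between −0.22 and −0.20.

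The cluster Ghi.6271 showed the same arrangement at a wider distance. Its listed probe set, Ghi.6271.2.S1_s_at, described as moderately similar to a rat beta-tubulin, gave 6.68 on V.1 and 7.35 on V.2 against 8.34 on G.29 and 8.17 on G.30. The *Gb* arrays did not overlap with the *Gh* arrays but lay 0.68 apart, a gap that 2.27% of all probe sets reached. The means of Ghi.6271.2.S1_s_at were 7.01 ± 0.48 and 8.25 ± 0.12 (SD, n = 2), a difference of −1.24 or 2.36-fold, which became −0.90 without V.1 and −1.58 without V.2. Its partner, Ghi.6271.1.S1_x_at, gave 14.02 and 13.88 on V.1 and V.2 and 14.20 on both *Gh* arrays. This difference of −0.25 (SE 0.06) did not pass the threshold (limma, adjusted p = 0.0905), with a range of 0.00477 to 0.125 over the same scalings.

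Of the 2 cluster partners, 1 was thus called, beside 20.3% of all probe sets called in either direction and 8.87% called as higher in *Gh*. Both partners had an unadjusted limma p below 0.05. The share of all probe sets below that level was not counted, so nothing is read from this. Fold differences of the partners, 1.16 and 1.19, stood far below the 2.11 to 2.97 of the listed probe sets, which had been selected on being large.

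**Figure D2:**
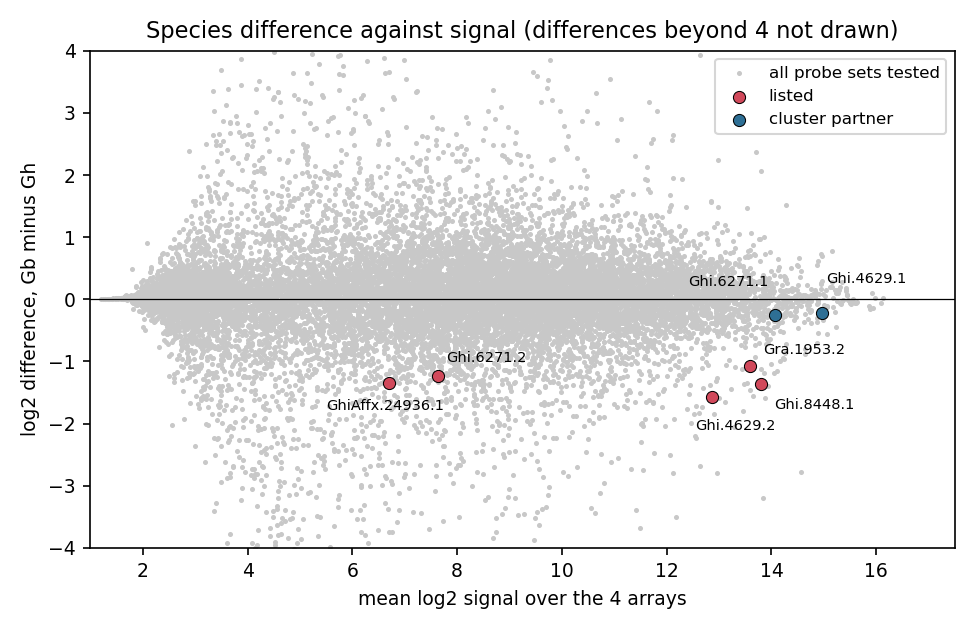
Log2 difference, *Gb* minus *Gh* (vertical axis), against the mean log2 signal over the 4 arrays (horizontal axis) for all probe sets (grey), listed tubulin probe sets (red) and their cluster partners (blue). The 168 probe sets with differences beyond 4 were not drawn. The partners lie near 0 at high signal, and the listed probe sets lie between −1.57 and −1.07.

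Within an array, the signal of a listed probe set can be set against that of its partner, so that any factor common to the whole array cancels. In cluster Ghi.4629 the listed probe set lay 2.65 and 2.90 below its partner on V.1 and V.2, but 1.42 below it on both *Gh* arrays. In cluster Ghi.6271 it lay 7.34 and 6.53 below on V.1 and V.2 against 5.86 and 6.03 below on G.29 and G.30. The species differences within a pair were therefore unequal by 1.36 in Ghi.4629 and by 0.99 in Ghi.6271. Since each pair contains a probe set selected for a large difference, such a gap was given by the choice. For comparison, probe sets sharing a cluster were paired if their mean log2 signal was at least 4 in either species. Among these 2642 pairs, in 913 clusters, the median gap was 0.45. Gaps as large as those of Ghi.4629 and Ghi.6271 were found in 17.1% and 25.1% of pairs. The sign of the difference was the same in 60.8% of these pairs and in both tubulin pairs.

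**Figure D3:**
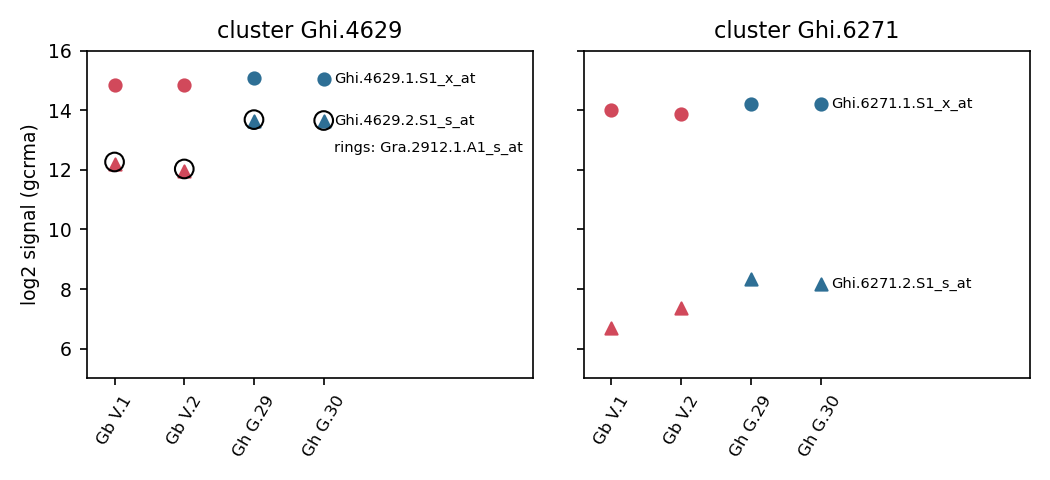
Log2 signal (vertical axis) on each array (horizontal axis, red for *Gb* and blue for *Gh*) for the clusters Ghi.4629 and Ghi.6271, with circles for the partner, triangles for the listed probe set and open rings for Gra.2912.1.A1_s_at. The partners run nearly level, between 13.88 and 15.07, and the listed probe sets step up from *Gb* to *Gh*. The rings lie on the triangles of Ghi.4629.2 on all 4 arrays.

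The tubulin names of 2 listed probe sets were contradicted by a second annotation in the study, made with the program Blast2GO. Ghi.4629.2.S1_s_at, titled BTub3 on the array, was there named phenylcoumaran benzylic ether reductase, an enzyme of lignan synthesis. Ghi.6271.2.S1_s_at was named after a hypothetical tobacco protein of the mitochondrial genome. Ghi.8448.1.S1_x_at was named only "protein" and Gra.1953.2.S1_s_at had no such name. The gamma-tubulin, in turn, was named by Blast2GO alone. The cluster partners had no name in the rows held here. In both of their clusters, the tubulin name came from a listed probe set whose name was contradicted.

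For Ghi.4629.2.S1_s_at the signals stood closest to those of a reductase. Among all 24022 probe sets outside the tubulins, the nearest in signal over the 4 arrays was Gra.2912.1.A1_s_at, at a Euclidean distance of 0.11 on the log2 scale. It is described on the array as an isoflavone reductase and carries the same Blast2GO name as Ghi.4629.2.S1_s_at. Gra.2912.1.A1_s_at gave 12.27 and 12.03 on V.1 and V.2 and 13.69 and 13.66 on G.29 and G.30, and was within 0.07 of Ghi.4629.2.S1_s_at on every array. Both fell by 0.23 from V.1 to V.2, whereas the partner Ghi.4629.1.S1_x_at differed by 0.02 between these arrays. A fall of 0.2 or more between the *Gb* arrays was seen in 8.29% of all probe sets. For the other listed probe sets the nearest neighbours, none with a tubulin name, lay at distances from 0.12 to 0.26. A small distance alone therefore does not show a shared transcript. A further probe set with this reductase name, GraAffx.33115.1.A1_s_at, had means of 5.48 in *Gb* and 7.34 in *Gh*. Whether Ghi.4629.2.S1_s_at detects a tubulin transcript was not tested, since no probe sequence was used here.

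Gamma-tubulin was the dimmest of the tubulin probe sets. GhiAffx.24936.1.S1_at gave 5.96 on V.1 and 6.09 on V.2 against 7.40 on G.29 and 7.33 on G.30. Its means were 6.03 ± 0.09 in *Gb* and 7.37 ± 0.05 in *Gh* (SD, n = 2), a difference of −1.34 or 2.53-fold, and the nearest arrays of the species were 1.24 apart. GhiAffx.24936.1.S1_at stood between percentiles 57.4 and 57.7 on the *Gb* arrays and between 64.6 and 65.1 on the *Gh* arrays. It was also the only tubulin probe set without the suffix _x or _s, by which the array maker marks probes that can bind more than one transcript. The other 6 of 7 carried such a suffix, as did 45.1% of all probe sets and 82.5% of those with a mean signal of at least 13.

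The probe sets of the beta-tubulin clusters, with the exception of Ghi.6271.2.S1_s_at, were among the brightest on the array, at percentile 93.5 or above on all 4 arrays. Of these bright ones, only Ghi.8448.1 and Gra.1953.2 belong to clusters whose tubulin name was not contradicted. Signals of different probe sets depend on their probes, so their order is not an order of transcript amounts. In *Gh* the order of mean signal ran from Ghi.4629.1 (15.07) through Ghi.8448.1 (14.49), Ghi.6271.1 (14.20), Gra.1953.2 (14.14), Ghi.4629.2 (13.65) and Ghi.6271.2 (8.25) to GhiAffx.24936.1 (7.37). In *Gb* the order differed in 1 place, with Ghi.6271.1 (13.95) above Ghi.8448.1 (13.13). In *Gb*, Ghi.8448.1 and Gra.1953.2 (13.06) were closer than 2 SD of the latter, so these neighbours are not separated beyond their spread.

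With 4 members at a mean signal of at least 13, the bright end of the array bears on the result. The 702 probe sets at that level had a median difference of 0.01. Of them, 25 (3.56%) were lower in *Gb* by 1 or more, including the tubulins Ghi.8448.1 and Gra.1953.2, and 10 were higher by 1 or more. The highest signal on the arrays lay between 16.13 and 16.16, more than 1 above any tubulin probe set. The part of the signal level in the size of the tubulin differences was not tested. The spread between arrays was larger in *Gb* than in *Gh* for 6 of the 7 tubulin probe sets, the exception being Ghi.8448.1, and for 58.3% of all probe sets.

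The nearest probe sets of the other members in signal were of varied names. Gra.1953.2 stood closest to an unnamed transcript, Ghi.7778.1.S1_s_at, at a distance of 0.12 over the 4 arrays, and then to sucrose synthase, Ghi.8665.1.S1_s_at, at 0.19, the enzyme that splits sucrose to give UDP-glucose. The sucrose synthase signal was 12.96 and 13.12 on V.1 and V.2 and 14.13 and 14.23 on G.29 and G.30. Ghi.8448.1 stood closest to a trans-cinnamate 4-hydroxylase, GarAffx.30221.1.S1_s_at, of the phenylpropanoid pathway, at 0.26, and to a cytochrome b5, Ghi.4548.2.S1_s_at, an electron carrier, at 0.28. Ghi.4629.2 had a cytochrome P450, Ghi.9005.1.A1_s_at, as its second neighbour at 0.27. The neighbours of Ghi.6271.2 were Ghi.4532.1.A1_at, similar to a glycosyl hydrolase, at 0.26, and the unnamed Ghi.5492.1.A1_s_at at 0.42. Those of GhiAffx.24936.1 were the unnamed Ghi.7069.1.S1_at at 0.15 and GhiAffx.19598.1.S1_s_at, with a glucosyltransferase name, at 0.21. The 7 members were left out of the search, and the unnamed neighbours were not identified here.

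Names of other cytoskeletal proteins were searched among the 1159 annotated rows, so that the direction of every name found was set beforehand. Beside the 5 tubulins there were 8 such names, with a median difference of −1.52. All 8 passed limma, as did 86.7% of the 1159 rows and 20.3% of all probe sets, and nothing is read from this count. Alpha-tubulin, the other subunit of the heterodimer, was not analysed here, since none of the rows used carries its name. The rest of the list was not used here.

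Names of microtubule motor proteins or their subunits were found for 3 probe sets. Kinesins travel along microtubules, whereas dynein light chains are small subunits known from the dynein motor of animals. A kinesin-like probe set, GhiAffx.26362.1.S1_s_at, gave 7.64 and 7.82 on V.1 and V.2 and 9.18 and 8.93 on G.29 and G.30, or 2.50-fold more signal in *Gh*. Another kinesin-like one, GhiAffx.50149.1.S1_s_at, was below 4 on both *Gb* arrays, at 3.73 and 3.56, and gave 6.29 and 6.53 on G.29 and G.30. The cytoplasmic dynein light chain GhiAffx.4121.1.S1_s_at gave 11.90 and 11.87 against 13.01 and 12.99, or 2.16-fold. Its arrays of each species lay closer together than those of the kinesins.

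The actin system, which carries vesicles in the growing fiber, gave the other 5 names. The probe set Ghi.7783.1.A1_s_at, similar to the Arabidopsis actin ACT11, gave 11.95 and 12.00 on V.1 and V.2 and 13.40 on both *Gh* arrays, or 2.68-fold. A second probe set with that similarity, Ghi.5940.1.A1_at, gave 2.12 and 2.49 in *Gb*, below 4, and 9.93 and 9.47 on G.29 and G.30. With both *Gb* arrays at that low level, no ratio is given for Ghi.5940.1.A1_at. Villin, Ghi.7668.1.S1_s_at, which bundles actin filaments, gave 8.70 and 9.02 against 10.75 and 10.71, or 3.64-fold. Myosins, the motors of actin filaments, were represented by Ghi.10530.1.S1_at, with 2.23-fold, and GhiAffx.40827.1.S1_s_at, with 3.07-fold.

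**Figure D4:**
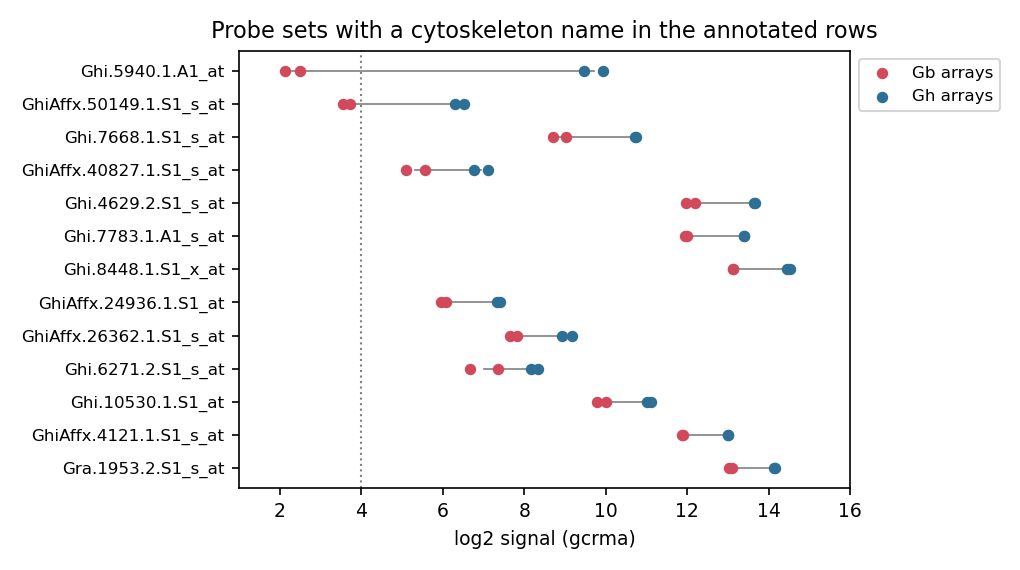
Log2 signal (horizontal axis) of the 13 probe sets with a cytoskeleton name among the annotated ones, tubulins included, for the *Gb* arrays (red) and the *Gh* arrays (blue), joined by a line between the group means and ordered by the size of the difference. The dotted line marks 4. The actin Ghi.5940.1 spans from 2.31 to 9.70 between the means and the tubulins have differences between −1.57 and −1.07.

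Markers of fiber and of other tissues were searched among the same rows, so their direction was set as well. Of 10 names of fiber proteins 9 passed limma, beside the 86.7% of all 1159 rows. Their means ran from 5.50 to 13.53 in *Gb* and from 7.85 to 14.68 in *Gh*. The names E6 and FbLate-2 were searched as well and were not in these rows, which hold only probe sets with less signal in *Gb*. There were 2 names of other tissues. The photosystem II protein GhiAffx.5664.1.S1_s_at had means of 6.30 in *Gb* and 7.57 in *Gh* and did not pass limma. Ghi.6309.2.A1_at, with means of 9.39 and 10.53, passed it. The latter is described on the array as similar to a late embryogenesis abundant protein but named gibberellin receptor by Blast2GO. No name of oleosin, legumin, vicilin or ribulose bisphosphate carboxylase was in those rows. The part of a different mix of tissues in the tubulin differences was not tested.

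The signal at the 5′ end relative to the 3′ end also differed between the species for some control transcripts. The array carries controls at the 5′ and 3′ ends of a few transcripts, whose difference falls as RNA is degraded or copied incompletely. For the actin control designed on *Gh*, the 5′ signal minus the 3′ signal was −3.03 and −3.07 on V.1 and V.2 and −2.52 and −2.18 on G.29 and G.30. The shift between the species was −0.70 for this control, −0.84 for sucrose synthase and −0.30 for ubiquitin. The *Gh* arrays were uneven in the last ones. Sucrose synthase gave −4.87 and −5.04 on V.1 and V.2 and −4.62 and −3.62 on G.29 and G.30. Ubiquitin gave −1.94 and −1.80 on V.1 and V.2 and −1.79 and −1.36 on G.29 and G.30. For the controls designed on *G. raimondii* the shift was −1.18 for actin, but 0.12 for sucrose synthase and 0.18 for ubiquitin. The part of this in the tubulin differences was not tested.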

How the data were processed

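Fiber RNA of 2 arrays per species was hybridized to the cotton Affymetrix array. The deposited values are log2 signals, which the authors computed and normalized with GCRMA. The sources used here give no version of it. The precision is limited by the number of arrays. Of 24132 probe sets, 103 controls were left out and 24029 were tested with limma 3.58.1 in R 4.3.3 (two-sided, Benjamini-Hochberg adjustment over all probe sets, threshold 0.05). The fit was tested on simulated data, and plots were drawn with matplotlib 3.10.9. A log2 signal of 4 was taken as low.

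Named were every listed probe set and its cluster partners, the 2 nearest other probe sets by Euclidean distance, and every cytoskeleton name in the annotated rows. GraAffx.33115.1 and the 3 probe sets with a tubulin cluster number under another prefix, which were not counted, lie outside this rule. Only the names were taken from the study's list, held here in part (1159 rows), since its fold changes and p-values are the authors' own comparisons. The members and lists were chosen with earlier results of these data known. The alternatives were other corrections, the methods' t-test, filters, scalings, and omission of arrays. Sequencing data of the study were not used here.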

Additional observations from a re-analysis of the deposited data

How the results depend on the processing

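The count of called cluster partners, 1, became 0 with Bonferroni correction and with the methods' t-test after either correction. It also became 0 with only probe sets reaching a log2 signal of 5 on 2 or more arrays. The same held with array medians subtracted and with a difference of at least 1 required. It became 2 with scaling to the 9 hybridization controls, which moved all probe sets by 0.28 between the species toward lower signal in *Gb*. It stayed 1 with an intensity trend, a robust prior and cyclic loess. The median difference of the listed probe sets, −1.34, became −1.26 with array medians subtracted and −1.62 with the hybridization controls, and ran from −1.40 to −1.28 without 1 array each. It was −1.39 with cyclic loess. It was −1.34 without the 2 probe sets of conflicting names, an alternative added after seeing the data. The same value stood with probe sets that can cross-hybridize left out, where only gamma-tubulin remained. The median is itself the gamma-tubulin value, and the 2 probe sets of conflicting names lay on either side of it. Neither of these 2 settings could therefore move it, and nothing is read from them. Over 7 scalings and omissions per tubulin probe set, 0 of 49 differences changed sign. Both *Gh* arrays lay above both *Gb* arrays for every one, so leaving out an array could not change a sign. For the listed probe sets the sign was also set by their choice, and nothing is read from this count. With cross-hybridizing probe sets left out, no partner remained to be counted. No paired analysis was possible because the groups share no replicate number. The cause of these changes was not tested.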
